A study of Mus musculus with 15 samples.

Results

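The fatty acid-binding proteins Fabp1, Fabp3, Fabp4, Fabp5 and Fabp7 were followed across 3 groups of alveolar macrophages, phagocytes that live in the airspaces of the lung, from mice. The members were the probes that the array's platform annotation assigns to exactly 1 of these symbols, which gave 5 probes, 1 for each gene, out of 17195 probes and 12909 named genes in all. The set was drawn up with the opposite moves of Fabp1 and Fabp5 already known from these arrays, so the group differences of the members are given as a description, with no test.

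Each of 15 spotted 2-colour arrays set 1 sample of macrophage RNA against a common macrophage reference RNA. The groups, of 5 arrays each, were beta6 null mice reconstituted with TGF-b1 (labelled b6-/-TGFb+/+Dox, and called the TGFb1 group here), beta6 null mice (b6-/-Dox) and wild type mice (b6+/+Dox), and mice of all 3 groups had received doxycycline. Beta6 is a subunit of the epithelial integrin that activates latent TGFb, and doxycycline is commonly used to switch on inducible transgenes. The promoter behind TGF-b1, the strain, the age and whether animals were pooled are not given in the sources used here, and wild type mice with TGF-b1 are not among the samples. Values are log2 ratios centred on the median of each array and read as sample over reference. That direction is likely but is not stated in the files, and neither is the base of the logarithm: if the ratio ran the other way, every sign below would turn. A ratio to a reference gives no absolute level, so genes are not compared with each other in level. Nothing in the labels says that the arrays came from separate animals, so the errors and p-values cover only how much these samples vary, and part of that may be technical.

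Fatty acid-binding proteins are small cytosolic proteins that hold long-chain fatty acids inside a barrel of beta strands and carry them to membranes, to sites of oxidation and to nuclear receptors. Fabp1 is the form of liver and gut and is also known from mouse alveolar macrophages. Fabp3 is the heart form, Fabp4 the form of adipocytes and macrophages, Fabp5 the epidermal form that macrophages also make, and Fabp7 the form of brain glia. Several of their genes respond to the peroxisome proliferator-activated receptors (PPARs), nuclear receptors that bind fatty acids, and Pparg is the one known for setting up alveolar macrophages.

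The promoter of Fabp1 is shown because a PPAR site is known in the rat gene, and because Pparg is among the genes measured on these arrays. RefSeq (GRCm38.p6) gave a promoter window for 3 of the 5 members, reaching from 250 bases before the start of the gene to 50 bases after it. The window of Fabp1 lies on the plus strand at chr6:71199629-71199928, and the capitals mark its 1 match, with at most 1 mismatch, to the PPAR element known as DR1, searched on both strands: AGGTCA repeated in the same direction with any 1 base between the copies.
Fabp1: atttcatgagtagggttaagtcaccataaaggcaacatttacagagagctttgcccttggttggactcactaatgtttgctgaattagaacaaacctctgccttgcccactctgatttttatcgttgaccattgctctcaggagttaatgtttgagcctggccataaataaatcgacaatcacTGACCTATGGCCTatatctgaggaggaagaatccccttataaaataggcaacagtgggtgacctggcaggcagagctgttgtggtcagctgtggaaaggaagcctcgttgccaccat

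The match spans bases 67 to 55 before the start and lies on the minus strand, at chr6:71199812-71199824. It is compared here with the nearest windows of the other members' promoters, each read along the strand of the element, with capitals where a base is as in the element.
Fabp1: AGGcCAtAGGTCA
Fabp3: gGGTtAgAtGgCA
Fabp7: AGtTCAcAcaTCA
The Fabp1 window differed from the element at 1 base, the Fabp7 window at 3 and the Fabp3 window at 4. A match with at most 1 mismatch was found in 182 of 32851 promoter windows of the same length (0.554%), and an exact one in 13 (0.0396%). The repeated unit AGGTCA, searched on both strands, occurred in 16.3% of the windows and was found in those of Fabp1 (2 places, of which 1 lies within the marked match) and Fabp7 (1 place). The palindrome GTCTAGAC, which SMAD proteins of the TGFb pathway bind, was in 0.213% of the windows and in none of the 3 shown here. A match is a description of these letters and does not show that a factor is bound.

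Fabp1 had the lowest ratios in beta6 null macrophages. Replicates are numbered here by the order of the samples within each group, and the labels carry no such numbers. In the TGFb1 group the log2 ratio of Fabp1 was 0.19, -0.22, -0.20, -0.54 and -1.30 in replicates 1 to 5. In beta6 null it was -2.14, -2.95, -3.76, -2.95 and -2.92, and in wild type 0.066, 0.91, 0.26, 0.12 and 0.30. All 5 beta6 null arrays lay below all 10 arrays of the other groups. The TGFb1 and wild type arrays overlapped through TGFb1 replicate 1 alone, with the rest of the TGFb1 arrays below all wild type arrays. The group means were -0.42 ± 0.56 with TGFb1, -2.94 ± 0.57 in beta6 null and 0.33 ± 0.34 in wild type (SD, n = 5 each). Beta6 null was 9.68-fold below wild type (difference -3.27, SE 0.34). The TGFb1 group was 5.77-fold above beta6 null (2.53, SE 0.34) and 1.68-fold below wild type (-0.75, SE 0.34).

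Fabp5 ran the other way, with its highest ratios in beta6 null. Its log2 ratio was 0.29, 0.35, 0.49, 0.68 and 0.40 in the TGFb1 group, 1.32, 1.70, 1.75, 1.88 and 1.40 in beta6 null, and -0.74, -0.49, -0.093, -0.80 and -0.30 in wild type. No 2 of the 3 groups overlapped, and the TGFb1 arrays sat in the gap between the others. The means were 0.44 ± 0.15 with TGFb1, 1.61 ± 0.24 in beta6 null and -0.49 ± 0.30 in wild type (SD, n = 5 each). Beta6 null was 4.27-fold above wild type (2.10, SE 0.23). The TGFb1 group was 2.25-fold below beta6 null (-1.17, SE 0.23) and 1.90-fold above wild type (0.93, SE 0.23). The signal of the Fabp5 probe cannot be told apart here from transcripts of close copies, because the probe sequences were not used. RefSeq lists 1 pseudogene of Fabp5 and 1 of Fabp3 under symbols built on these names. Copies under other names were not searched for.

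**Figure D1:**
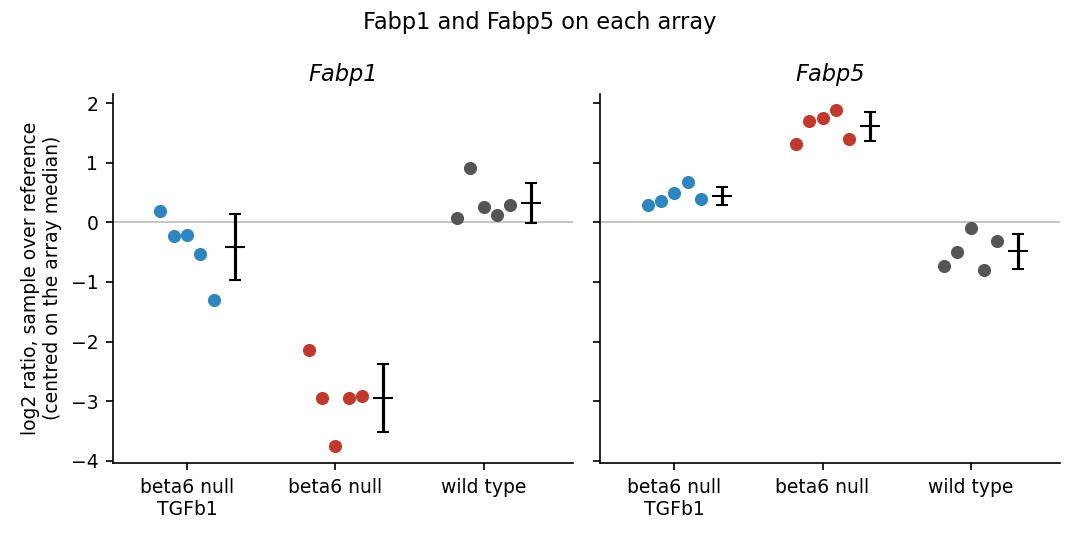
Centred log2 ratio (sample over reference, read as likely) of Fabp1 and Fabp5 on each array, with the TGFb1 group, beta6 null and wild type from left to right; points are arrays in the order of their replicate numbers, and bars give the mean ± SD of 5 arrays. Fabp1 is lowest and Fabp5 highest in beta6 null. The TGFb1 arrays overlap wild type for Fabp1 through replicate 1 alone (0.19, the others from -1.30 to -0.20), and not for Fabp5 (from 0.29 to 0.68).

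The place of each gene among all features of its own array was lowest for Fabp1 and highest for Fabp5 in beta6 null. Scaling all values of an array alike leaves this place unchanged, but a given ratio lies nearer the middle on an array with wider values. Fabp1 stood at the 5.5th to 58.1st percentile in the TGFb1 group, at the 0.6th to 14.7th in beta6 null and at the 52.8th to 70.0th in wild type. Fabp5 stood at the 62.0th to 78.8th percentile with TGFb1, at the 76.4th to 97.9th in beta6 null and at the 19.3rd to 46.2nd in wild type. By this measure the TGFb1 and beta6 null arrays overlapped for both genes: for Fabp1 through TGFb1 replicate 5 (5.5) and beta6 null replicate 1 (14.7), and for Fabp5 through TGFb1 replicate 4 (78.8) and beta6 null replicate 1 (76.4).

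Of the 5 members, 4 entered the fit across all features, and Fabp7 did not, with values on 2 wild type arrays. In beta6 null against wild type limma at an adjusted p under 0.05 called 0.949% of 13273 features (0.362% higher and 0.588% lower). In the TGFb1 group against beta6 null it called 0.708% (0.580% higher and 0.128% lower). Between the TGFb1 group and wild type 0% of features were called by limma, with 833 features at an unadjusted p under 0.05. Since the members were chosen on these contrasts, their own calls are not given.

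Groups without overlap were likewise frequent enough to need a background. In beta6 null against wild type they were found for Fabp5 (above) and Fabp1 (below), beside 5.12% of features (2.06% above and 3.06% below). In the TGFb1 group against beta6 null they were found for Fabp1 (above) and Fabp5 (below), beside 8.26% (6.36% above and 1.91% below). Against wild type, Fabp5 of the TGFb1 group lay above, beside 2.88% (1.79% above and 1.09% below). Each group enters 2 of the 3 comparisons, so their values are not independent of each other.

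Arrays differed in spread, with SDs between 0.841 and 2.01, and 742 to 5610 of 17225 spots on an array had no value. Beta6 null replicate 1 and wild type replicate 2 were the widest. With all arrays scaled to 1 spread, beta6 null minus wild type was -2.67 for Fabp1 and 1.745 for Fabp5. The array titles end in 1 or 2, a mark whose meaning is not given. Within the arrays ending in 1, beta6 null minus wild type was -3.44 for Fabp1 and 2.28 for Fabp5 (4 and 2 arrays), and within those ending in 2 it was -3.15 and 1.80 (1 and 3 arrays). For the TGFb1 group minus beta6 null, Fabp1 was at 2.63 and Fabp5 at -1.16 within ending 1 (3 and 4 arrays), and at 2.36 and -1.06 within ending 2 (2 and 1 arrays). The sign of each gene was thus the same within both endings.

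Some markers of sex and cell type also differed between the groups. Xist, which coats the silenced X chromosome in female cells, lay between -3.48 and -2.27 in the TGFb1 group, between -2.46 and 0.88 in beta6 null and between -4.14 and -2.37 in wild type. Xist was called higher in beta6 null against wild type (2.69, SE 0.59, limma adjusted p = 0.0444). Its TGFb1 group minus beta6 null was -2.67, without a call (limma adjusted p = 0.0524). The labels do not name the sex of the mice, and the part of sex in the group differences was not tested. With the Xist level as a covariate, beta6 null minus wild type was -2.80 (SE 0.54) for Fabp1 and 2.20 (SE 0.38) for Fabp5. The median ratio of 8 measured dendritic cell and monocyte markers ranged from -0.42 to -0.057 over the TGFb1 arrays, from 0.53 to 1.73 over beta6 null and from -0.87 to 0.30 over wild type. By limma 1 of these 8, Ly75, fell in beta6 null against wild type (-2.72), beside 0.588% of all features, and 0 rose. Ly75 thus ran against the median difference of its list, which was 1.13. Itgae fell in the TGFb1 group against beta6 null, beside 0.128% of all features. The median of 12 alveolar macrophage markers ranged from -0.89 to -0.20 with TGFb1, from -2.62 to -1.78 in beta6 null and from -1.06 to 0.009 in wild type. Of these 12, 4 fell in beta6 null against wild type, beside 0.588% of all features. They were Flt1, Il18, Krt19 and Olr1, all known to do so before the list was drawn up. The other 8 did not pass there, at differences between -1.98 and 0.039. The median difference of the 12 was -0.90, beside -0.81 for 5 general macrophage markers and -0.047 over all features. In the TGFb1 group against beta6 null 3 rose (Il18, Krt19 and Olr1), beside 0.580% of all features, and 9 did not pass. The ratios do not show whether any marker is absent, and the part of these cell types in the Fabp1 and Fabp5 values was not tested. In bulk RNA, fewer cells of a type and less RNA per cell cannot be told apart.

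Fabp3, the heart form, varied widely and its groups overlapped in every comparison. Its log2 ratio was -3.14, -2.19, -1.86, -1.48 and -0.56 in the TGFb1 group, 1.14, -0.20, 0.62 and -1.59 in beta6 null replicates 1, 2, 3 and 5, and -2.24, -1.96, -0.46 and 0.25 in wild type replicates 1, 3, 4 and 5. Beta6 null replicate 5 lay apart from the other 3 beta6 null arrays, inside the range of the TGFb1 group. The difference of the TGFb1 group from beta6 null was -1.84 (SE 0.68), and that of beta6 null from wild type was 1.095 (SE 0.72). The TGFb1 group minus wild type was -0.74 (SE 0.68). With arrays weighted by their quality, the TGFb1 group minus beta6 null was -0.577, and beta6 null minus wild type turned to -0.291. Beta6 null minus wild type was 2.76 within the titles ending in 1 (3 and 1 arrays) and -0.87 within those ending in 2 (1 and 3 arrays), so its sign was not the same in both.

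Fabp4, the adipocyte and macrophage form, showed no group apart. Its log2 ratio was -0.34, 0.092, -0.34, 0.17 and 0.022 in the TGFb1 group, 0.48, -0.48, -2.37, -0.18 and 0.38 in beta6 null, and -1.40, -0.92, -0.14 and -0.47 in wild type replicates 1, 3, 4 and 5. Beta6 null replicate 3 was the lowest of the 14 values, and the TGFb1 arrays were the closest to each other (SD 0.25, against 1.15 in beta6 null and 0.55 in wild type). The TGFb1 group minus beta6 null was 0.35 (SE 0.47), beta6 null minus wild type 0.30 (SE 0.50) and the TGFb1 group minus wild type 0.65 (SE 0.50). The groups overlapped in all 3 comparisons. Without beta6 null replicate 3, the TGFb1 group minus beta6 null turned to -0.13 and beta6 null minus wild type was 0.783.

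Fabp7, the brain form, was measured on all 5 TGFb1 arrays but on few others. It stood at 2.32, 0.75, 3.54, 3.63 and 3.52 in the TGFb1 group, at 1.48, 1.21 and 0.39 in beta6 null replicates 3, 4 and 5, and at 0.865 and 0.976 in wild type replicates 2 and 3. On 4 of the 5 TGFb1 arrays it lay above every other value, and TGFb1 replicate 2 lay among the beta6 null values. The spots without a value were not filled in, and no fitted difference was made.

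**Figure D2:**
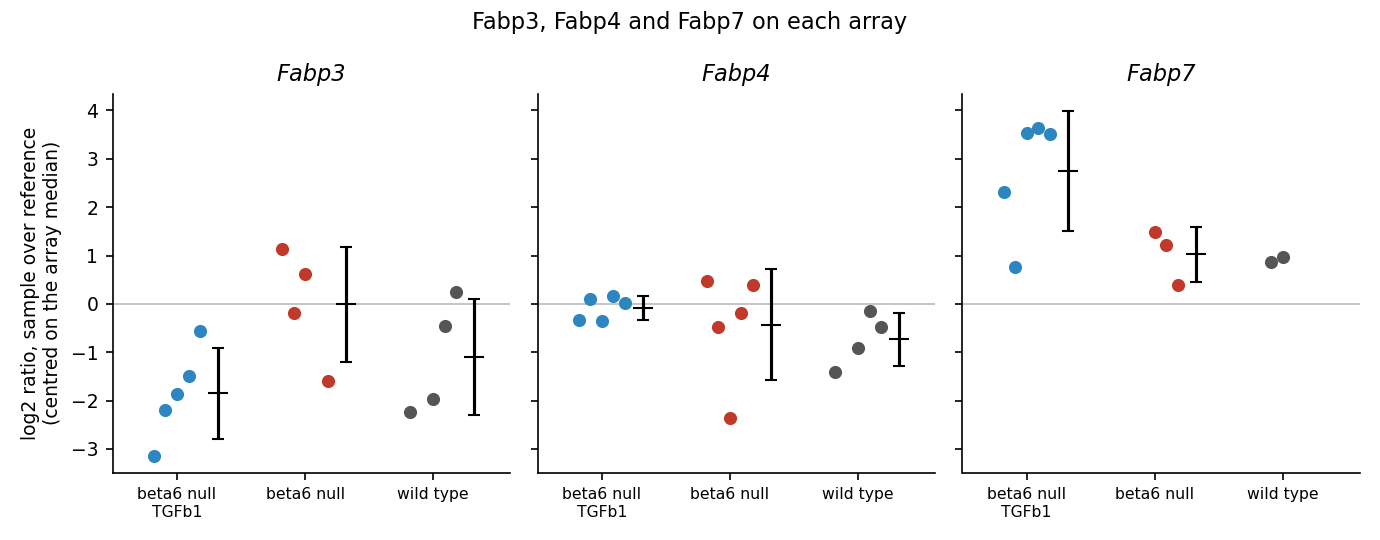
Centred log2 ratio of Fabp3, Fabp4 and Fabp7 on each array with a value, drawn as for Fabp1 and Fabp5; the mean ± SD is drawn where at least 3 arrays had a value. The groups overlap for all 3 genes, and Fabp7 reaches 3.63 in the TGFb1 group while 2 wild type arrays have a value.

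Fabp5 and Fabp4 lie close together on mouse chromosome 3, in the order Fabp5, Pmp2, Fabp9, Fabp4 and Fabp12 in RefSeq. The centred ratios of Fabp5 did not overlap between any groups, while those of Fabp4, from the same cluster, overlapped in all. Fabp9, the testis form, had values on 4 arrays, and Pmp2 and Fabp12 were not read by a named probe. The flanking genes Zfp704, Pag1, Impa1 and Zfand1 did not pass the limma test in beta6 null against wild type, at differences between -1.05 and 0.09 (adjusted p = 0.405 to 0.942), or in the TGFb1 group against beta6 null, at 0.18 to 1.32 (adjusted p = 0.195 to 0.856).

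Over the 15 arrays, Fabp1 and Fabp5 ran opposite to each other. Pearson's r between them was -0.92, and both were picked for these opposite moves. The 15 points fall into the 3 groups, so r mostly restates the group means. After each group's mean was taken away it was -0.25, and between -0.34 and -0.053 when any 1 array was left out. Fabp4 had r = 0.12 with Fabp1 and 0.047 with Fabp5 over 14 arrays, and 0.51 and -0.29 after group means were taken away. Without beta6 null replicate 3, r was -0.46 with Fabp1 and 0.53 with Fabp5, and the 0.51 became 0.066. The -0.29 was between -0.45 and -0.16 without any 1 array.

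**Figure D3:**
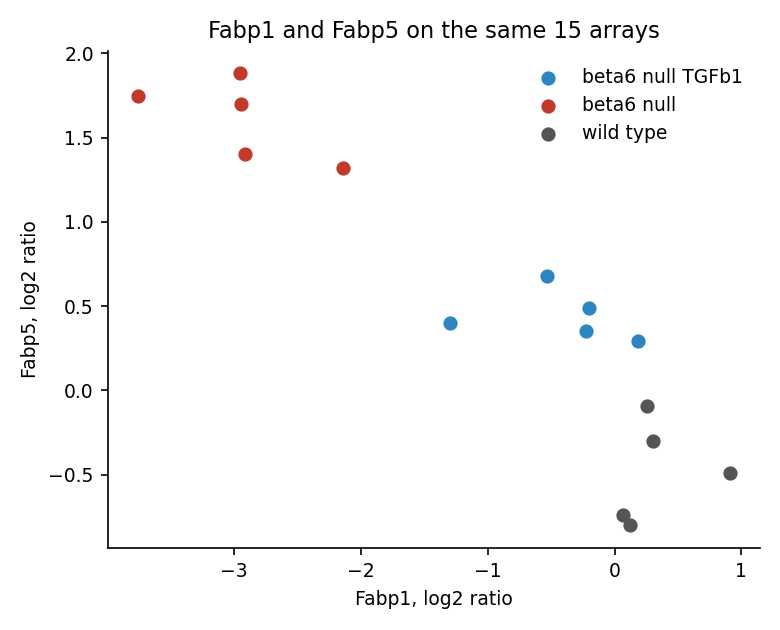
Log2 ratio of Fabp1 (x axis) against Fabp5 (y axis) on the same array, 15 arrays coloured by group. Beta6 null lies at the upper left, wild type at the lower right and the TGFb1 group between them, and within a group the points show little slope.

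The genes most like each member were taken by the highest r over the same arrays. For Fabp1 these were Ppp1r16a, a regulatory subunit of protein phosphatase 1 (r = 0.97), Desi1, a peptidase that removes SUMO (0.96), Nrip1, a corepressor of nuclear receptors (0.93), Tpra1 (0.93) and Sycn, a protein of secretory granules (0.93). Ppp1r16a averaged -0.17 ± 0.40 with TGFb1 (n = 5), -1.32 ± 0.25 in beta6 null (n = 4) and 0.43 ± 0.32 in wild type (SD, n = 5). It also followed Fabp1 within groups, with r = 0.84 after group means were taken away (0.74 to 0.87 without any 1 array), while Tpra1 had 0.15 (-0.20 without TGFb1 replicate 5 and 0.44 without TGFb1 replicate 1). Nrip1 was read by 2 probes that did not show the same pattern: the first averaged -0.013 with TGFb1, -2.04 in beta6 null and 0.52 in wild type, and the second 1.31 with TGFb1, 1.11 in beta6 null and 1.04 in wild type.

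For Fabp5 the genes most like it were Hk1, a hexokinase (r = 0.96), Mmp12, the macrophage elastase (0.93), Serpinb12, a protease inhibitor (0.92), S100a8, a calgranulin (0.91), and Slc11a2, an iron transporter (0.89). Hk1 averaged 0.998 ± 0.14 with TGFb1, 1.90 ± 0.32 in beta6 null and 0.40 ± 0.18 in wild type (SD, n = 5 each), the same order as Fabp5. Within groups the likeness was weaker, at r = 0.45 for Hk1 (0.37 to 0.49 without any 1 array) and 0.17 for Mmp12 (0.052 without beta6 null replicate 3 and 0.29 without beta6 null replicate 4). It was 0.16 for Serpinb12 (-0.00034 to 0.29 without any 1 array) and 0.20 for S100a8 (0.030 to 0.46). For Slc11a2 the sign turned, at -0.28 (-0.52 to 0.0067). For Fabp4 the 5 highest were Xlr4c, 1700008J07Rik, Ssbp3, Cdca2 and Rtn4 (r = 0.87 to 0.88 over 14 arrays, and 0.86 to 0.90 after group means were taken away). This likeness leans on beta6 null replicate 3, the lowest array for Fabp4: without it r was 0.68 to 0.73, and 0.45 to 0.76 after group means were taken away. Fabp3 and Fabp7 had values on 13 and 10 arrays, too few for this measure.

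**Figure D4:**
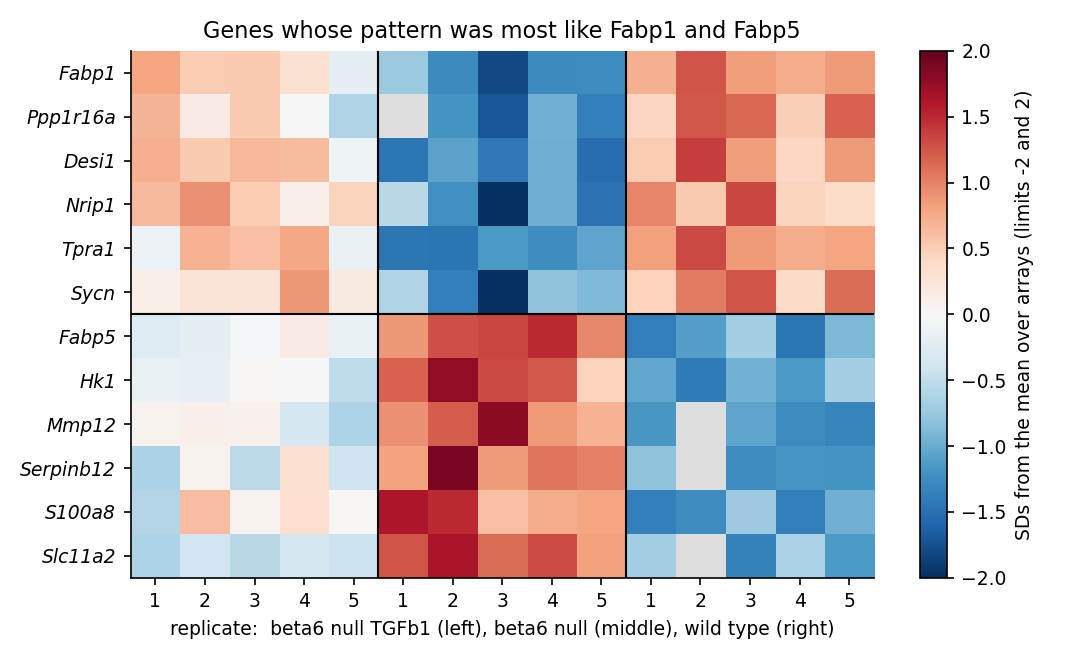
Fabp1 and Fabp5 with the 5 genes most like each, on 15 arrays grouped as the TGFb1 group, beta6 null and wild type; colour gives SDs from the gene's mean over arrays, drawn at -2 and 2 where beyond, and grey marks no value. The Fabp1 block is low and the Fabp5 block high on the 5 beta6 null arrays, because the genes were picked for that likeness.

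Genes that take up, activate, sense and store fatty acids were set beside the members. Of 85 listed genes of fatty acid handling 61 entered the fit. In beta6 null against wild type 0 rose, 2 fell and 59 did not pass, or 3.28% called beside 0.949% of all features, and 13 had an unadjusted p under 0.05. Their median difference was -0.12, beside -0.047 over all features. In the TGFb1 group against beta6 null 1 rose and 0 fell (1.64% beside 0.708%), with a median of 0.29 beside 0.12. Between the TGFb1 group and wild type 0 of 61 passed by limma, with 4 at an unadjusted p under 0.05 and a median of 0.066 beside 0.070. These lists were drawn up with earlier results in view, Pparg and Cidec among them.

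Among other members of the same protein family 0 passed by limma, and 0 had an unadjusted p under 0.05, in any comparison. Of 10 listed, 5 entered the fit: Fabp2 of the gut, the bile acid carrier Fabp6, and the retinoid carriers Crabp1, Crabp2 and Rbp2. Their differences lay between -1.01 and 0.12 in beta6 null against wild type and between -1.19 and 1.35 in the TGFb1 group against beta6 null. Fabp6, measured on all arrays, averaged 0.82 ± 1.14 with TGFb1, 0.93 ± 0.80 in beta6 null and 0.81 ± 0.57 in wild type (SD, n = 5 each).

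Among 19 genes of fatty acid uptake and activation 0 passed by limma in each comparison, with 5 at an unadjusted p under 0.05 in beta6 null against wild type and 6 in the TGFb1 group against beta6 null, while their medians were -0.32 in beta6 null against wild type and 0.55 in the TGFb1 group against beta6 null. Cd36, a scavenger receptor that takes up fatty acids, was at -0.48 ± 0.27 with TGFb1, 0.089 ± 0.65 in beta6 null and -0.77 ± 0.31 in wild type (SD, n = 5 each). Its difference of 0.86 in beta6 null against wild type did not pass (SE 0.31, limma adjusted p = 0.281). Lpl, the lipase that frees fatty acids from lipoproteins, was at -0.81 ± 0.95 with TGFb1, -2.24 ± 0.62 in beta6 null and -1.17 ± 0.63 in wild type (SD, n = 5 each), and did not pass either (1.43 in the TGFb1 group against beta6 null, SE 0.46, limma adjusted p = 0.162).

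Of 9 measured PPAR and RXR receptors and coregulators, Pparg rose in the TGFb1 group against beta6 null, while the other 8 did not pass. Pparg had log2 ratios of -1.65, -1.77, -1.18, -1.23 and -1.97 in the TGFb1 group, -4.26, -3.33, -3.02, -3.27 and -3.13 in beta6 null and -2.38, -3.11, -1.63, -2.70 and -1.46 in wild type. The TGFb1 arrays all lay above the beta6 null arrays, and wild type overlapped both. The TGFb1 group minus beta6 null was 1.84 (SE 0.35, limma adjusted p = 0.0332), a call that held in 15 of 27 alternatives (adjusted p = 0.00222 to 0.492). The difference shrank to 1.086 under quantile normalization (adjusted p = 0.310) and to 1.117 with equal spread of the arrays (0.193). The call was also lost without beta6 null replicate 1, 2 or 4 (adjusted p = 0.0506, 0.0800 and 0.0619) and without TGFb1 replicate 1, 2, 3 or 4 (0.0741, 0.0625, 0.109 and 0.101). In beta6 null against wild type Pparg was at -1.14 (SE 0.35) and did not pass (limma adjusted p = 0.191). Beside Fabp1, Pparg had r = 0.61 over 15 arrays and -0.35 after group means were taken away, and beside Fabp5 it had -0.46 and 0.66. The -0.35 was -0.62 without TGFb1 replicate 5 and -0.11 without beta6 null replicate 1. Ppara, Ppard and Rxra, the partner of PPARs on DNA, had differences between -0.085 and 0.38 in beta6 null against wild type and between 0.033 and 0.57 in the TGFb1 group against beta6 null, none of them called.

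Of 16 measured PPAR targets, 0 rose and 2 fell in beta6 null against wild type. Acaa1a, a thiolase of fatty acid oxidation in peroxisomes, had ratios of -1.38, -2.31, -1.72, -2.49 and -2.49 in beta6 null and -0.27, -0.48, 0.16, -0.53 and 0.26 in wild type, without overlap. The difference was -1.91 (SE 0.31, limma adjusted p = 0.00626), called in 24 of 27 alternatives (adjusted p = 0.000135 to 0.467) and lost under quantile normalization (0.0909), with equal spread (0.0694) and with Xist as a covariate. Its close paralogue Acaa1b may share the probe, so the gene behind the signal is uncertain. In the TGFb1 group Acaa1a was at -0.68 ± 0.42 (SD, n = 5), and 1.40 above beta6 null without a call (SE 0.31, limma adjusted p = 0.0521). Cidec, a protein of lipid droplets, had ratios of -2.88, -2.65, -2.43, -2.29 and -2.84 in beta6 null and -1.58, -1.07, -1.59 and -0.82 in wild type replicates 1, 3, 4 and 5. It fell by 1.35 on the log2 scale (SE 0.25, limma adjusted p = 0.0216), called in 17 of 26 alternatives (adjusted p = 0.00315 to 0.548). The difference shrank to -0.83 under quantile normalization (adjusted p = 0.531) and to -0.87 with equal spread of the arrays (0.375), and the call was also lost without beta6 null replicate 2 (0.0567) or wild type replicate 3 or 5 (0.0848 and 0.0930). Plin2, which coats lipid droplets, was at 0.39 ± 0.26 with TGFb1, 0.58 ± 0.79 in beta6 null and 0.23 ± 0.99 in wild type (SD, n = 5 each) and did not pass in any comparison. Of 12 genes of storage and lipolysis 0 passed by limma in each comparison (1 and 2 at an unadjusted p under 0.05), with medians of -0.23 in beta6 null against wild type and 0.12 in the TGFb1 group against beta6 null.

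**Figure D5:**
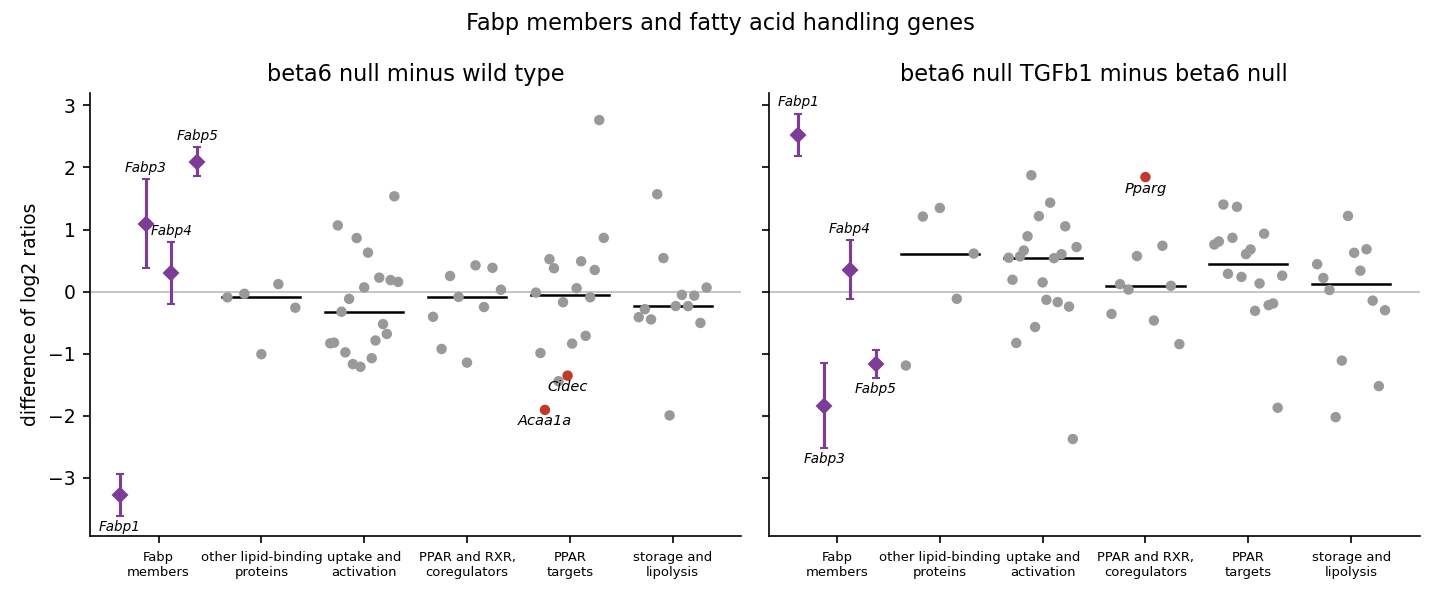
Difference of log2 ratios for the 4 Fabp members in the fit (diamonds, bars are standard errors) and for 5 lists of fatty acid handling genes (points, line at the list's median), in beta6 null minus wild type (left) and the TGFb1 group minus beta6 null (right); red points passed the limma test. Acaa1a and Cidec are the 2 list genes that fell at left, and Pparg is the 1 that rose at right.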

How the data were processed

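Alveolar macrophage RNA of 15 mouse samples was measured on 2-colour arrays. The files hold a deposited log ratio for each probe and array, taken as log2 of sample over reference. Nothing per the labels names a background correction or normalization. The members and lists were chosen with earlier results of these data known.

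Of 17225 probes, 30 control spots were left out. Of the rest, 13972 carried 1 symbol in the platform annotation, 13 several and 3210 none, and Entrez IDs gave current symbols for 13869 of them in RefSeq (GRCm38.p6). Arrays were centred on their median, probes of a gene were averaged, and 13273 features passed a minimum of 3 measured arrays in each group. Group means were estimated from all 15 arrays at once with limma 3.58.1 in R 4.3.3. The Benjamini-Hochberg method was applied to p-values over all features, with a threshold of 0.05. Standard errors come from this model. The steps were tested on simulated data in which each gene had the same spread on every array, unlike the arrays here.

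Genes were named by rule: the members, genes of the fatty acid lists that passed in any comparison, Pparg, Ppara, Ppard, Rxra, Cd36, Lpl and Plin2, and for each member the 5 genes of highest r over at least 14 arrays. Family members, flanking genes, called marker genes and Scd1 fall outside it and were chosen after their values were seen. In beta6 null against wild type, markers of endothelium, adipocytes, muscle, neural cells, and liver and gut had 0 calls by limma, and 0 at an unadjusted p under 0.05, among 3, 3, 3, 4 and 5 measured genes. General macrophage markers had 0 calls among 5, with 1 at an unadjusted p under 0.05. All 5 lay below 0, at a median of -0.81 beside -0.047 over all features. In the TGFb1 group against beta6 null they had 0 calls, with 3 at an unadjusted p under 0.05. There all 5 lay above 0, at a median of 0.86 beside 0.12. Of 9 lung epithelium markers Sftpc rose and Epcam fell in beta6 null against wild type, and Epcam rose in the TGFb1 group against beta6 null.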

Additional observations from a re-analysis of the deposited data

Results flagged for a closer look

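Among 13 sets of 4 or 5 arrays of a member, 1 held a value far from the others. Chance alone flags about 1 set in 20, so 1 among 13 is not unusual. Fabp1 stood at 0.911 on wild type replicate 2, above the other 4 wild type arrays, with a gap of 0.724 of the group's whole range. This array is one of the pair with the widest values.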

How the results depend on the processing

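Fabp1 and Fabp5 kept their sign in all comparisons under all 27 alternatives. Both were chosen for their opposite moves, so this is a description. Where 2 groups do not overlap, leaving out 1 array cannot turn the sign. Leaving out 1 array gave -3.48 to -3.07 for Fabp1 and 2.02 to 2.19 for Fabp5 in beta6 null against wild type, 2.32 to 2.75 and -1.24 to -1.10 between the TGFb1 group and beta6 null, and -0.90 to -0.53 and 0.85 to 1.02 between the TGFb1 group and wild type. With equal spread of the arrays they were -2.67 and 1.745 in beta6 null against wild type and 1.916 and -0.861 for the TGFb1 group against beta6 null. With array weights Fabp3 turned to -0.291 in beta6 null against wild type and was -0.577 for the TGFb1 group against beta6 null. Fabp4 changed sign in 2 of 26 alternatives for the TGFb1 group against beta6 null (without beta6 null replicate 3 and with Xist as a covariate) and kept it in 26 of 26 for each of the other comparisons. The r values without 1 array were added after seeing the data. No paired analysis was possible because the labels carry no replicate numbers, and those used here only follow the order of the samples.

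The count of 126 features in beta6 null against wild type was 76 under quantile normalization (40 higher, 36 lower, in place of 48 and 78), 66 without the 2 arrays numbered apart, 64 with the title ending as a block, 433 with array weights, 45 with the arrays of the 2 groups alone and 0 with Xist as a covariate; without 1 array it was 63 to 154, and it fell by over 1.5 times without beta6 null replicate 2 (68), TGFb1 replicate 4 (82) or wild type replicates 1, 3, 4 or 5 (81, 64, 76 and 63). The count of 94 in the TGFb1 group against beta6 null was 15 under quantile normalization (8 higher, 7 lower, in place of 77 and 17), 25 with equal spread, 220 on features complete on 15 arrays, 43 with the block, 27 without the arrays numbered apart, 287 without the 2 widest arrays, 1000 with weights and 0 with Xist; without 1 array it was 23 to 311, the most without wild type replicate 2, and it was 27 and 46 without beta6 null replicates 2 and 4 and 40, 41, 23, 24 and 62 without TGFb1 replicates 1 to 5. Against wild type the TGFb1 count of 0 became 2 with weights and 1 with its 10 arrays alone, and 0 to 1 without 1 array.

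The 2 list genes called in beta6 null against wild type (0 higher, 2 lower) became 1 higher and 0 lower under quantile normalization and under equal spread, where neither Acaa1a nor Cidec passed. They became 1 higher and 1 lower with the title ending as a block, 1 lower without the arrays numbered apart and with 10 arrays alone, 5 without the widest arrays (3 higher, 2 lower), 9 with weights (3 higher, 6 lower) and 0 with Xist. Without 1 array they were 1 to 5: 5 without beta6 null replicate 1 (3 higher, 2 lower) and 1 without beta6 null replicate 2 or wild type replicate 3 or 5. The 1 called in the TGFb1 group against beta6 null became 0 under quantile normalization, equal spread, with the title ending as a block, with Xist and without the arrays numbered apart, 2 without centring, 3 on complete features, 6 without the widest arrays (3 higher, 3 lower) and 11 with weights (8 higher, 3 lower), and 0 to 4 without 1 array: 4 higher without wild type replicate 2, 2 higher without TGFb1 replicate 5, 1 higher and 2 lower without beta6 null replicate 1, and 0 without beta6 null replicate 2 or 4 or TGFb1 replicate 1, 2, 3 or 4. The causes of these shifts were not tested. Depth is not known for these arrays, and their number limits the precision.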

Other observations

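Scd1, the desaturase that makes monounsaturated fatty acids, had the largest positive difference of the 61 measured genes of fatty acid handling in beta6 null against wild type, without a call. It averaged -0.80 ± 0.65 with TGFb1 (n = 5), 1.07 ± 1.26 in beta6 null (n = 5) and -1.69 ± 1.02 in wild type (SD, n = 4). Beta6 null minus wild type was 2.76 (SE 0.63, limma adjusted p = 0.0647) and the TGFb1 group minus beta6 null was -1.87 (SE 0.60, limma adjusted p = 0.162). It was picked with its values in view.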
